A study of Rattus norvegicus with 30 samples.

Results

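Interleukin 1 and inflammasome genes were examined in the brain of 10 wild-type (WT), 10 HIP and 10 AKO rats. The 10 genes were taken from the table by their symbols, out of 17134 genes in all: Il1b, Il1a, Il1rn, Il1r1, Il18, Nlrp3, Casp1, Pycard, Nfkbia and Nfkbid. Each matched 1 row. All rats were male Sprague Dawley rats on a normal diet. HIP rats carry human amylin, made in pancreatic β-cells, beside their own rat amylin, and AKO rats lack amylin. According to the paper, HIP rats develop diabetes with glucose dysregulation. The part of diabetes in the differences between HIP rats and the other groups was not tested. The age of the HIP and WT rats was 15 to 16 months, and that of the AKO rats used for sequencing is not given in the sources used here. The study asked whether genes of the brain respond to human amylin that is secreted by the pancreas. The tissue is called frontal cortex in the sample annotation, cerebral cortex in the methods and hippocampus in the results. Bulk RNA was sequenced, so fewer cells of a type and less RNA per cell cannot be told apart.

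Interleukin 1 (IL-1) is a family of cytokines that start inflammation. In the brain, microglia and invading myeloid cells are its main known sources, and endothelium, glia and neurons carry the receptor. Il1b and Il18 encode inactive precursors. An inflammasome, assembled from a sensor such as NLRP3, the adaptor ASC (gene Pycard) and caspase-1 (Casp1), cuts them into active cytokines. Binding of IL-1 to its receptor IL1R1 recruits MyD88 and IRAK kinases and releases the transcription factor NF-κB from its inhibitor IκBα (Nfkbia), a gene that NF-κB itself induces.

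The promoters of the 10 genes were searched for the NF-κB consensus, because IκBα and IL-1β are textbook NF-κB targets. The sequences are those of RefSeq (GRCr8), the 250 bases before each annotated start were searched on both strands, and all 10 symbols matched. Nfkbia and Il1r1 held a match, and the other 8 genes, Il1b among them, held none in this window. Of all promoter windows of the same length, 6.33% held a match. The last 150 bases before the start are given 5′ to 3′ for both genes with a match and for Il1b, which was highest in the same rat as Nfkbia, with matched bases in capitals.
Nfkbia, chr6:78597073-78597222, minus strand: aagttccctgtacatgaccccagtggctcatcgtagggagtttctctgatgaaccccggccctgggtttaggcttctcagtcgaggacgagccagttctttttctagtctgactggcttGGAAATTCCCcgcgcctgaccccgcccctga
Il1r1, chr9:50034233-50034382, plus strand: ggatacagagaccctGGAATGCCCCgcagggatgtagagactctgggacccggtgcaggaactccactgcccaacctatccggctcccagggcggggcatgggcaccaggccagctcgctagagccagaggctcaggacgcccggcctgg
Il1b, chr3:137036582-137036731, minus strand: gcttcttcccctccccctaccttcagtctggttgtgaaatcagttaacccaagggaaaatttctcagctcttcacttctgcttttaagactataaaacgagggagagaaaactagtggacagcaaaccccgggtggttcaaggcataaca
The match began 31 bases before the start in Nfkbia, and near the 5′ end of the printed stretch in Il1r1. These are matches of letters, and binding was not measured.

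The values are normalized read counts, which are not divided by transcript length, so that levels of different genes were not compared. Reads on genes were estimated at 12.9 to 21.2 M (mega) in WT, 13.7 to 16.7 M in HIP and 12.9 to 23.6 M in AKO rats. WT rat 10RT43 goes against the frontal cortex label. Its mean log2 level over 7 neocortex markers was 6.44, compared with 10.3 to 11.4 in the other 29 rats, with Fezf2 at 0 and the cerebellum markers high. HIP rat 10RT46 held pineal gland and choroid plexus markers, and AKO rat 7AKO19 held choroid plexus markers. HIP rat 12RT23 had the second highest cerebellum list (9.39). AKO rats carry either KAH (4 rats) or AKO (6 rats) in their names and WT and HIP rats carry RT, so that the name series and the AKO genotype cannot be told apart.

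Il1b, the secreted agonist IL-1β, was close to the limit of detection. The lowest, median and highest normalized counts were 0, 2.04 and 8.59 in WT rats, 0, 5.46 and 8.38 in HIP rats and 1.09, 4.92 and 49.4 in AKO rats. In reads, this is about 28 in all WT rats together, 46 in all HIP rats and 80 in all AKO rats, of which 36 came from AKO rat 4KAH27. At most 3 reads were found in 8 of 10 WT, 4 of 10 HIP and 3 of 10 AKO rats, and the 3 groups overlapped. In AKO vs. WT rats Il1b was higher by 1.12 on the log2 scale (SE 0.46, unadjusted p = 0.0246, adjusted p = 0.455, limma), with 9 of 10 AKO rats above the WT median. Leaving out 4KAH27 gave 0.79 (p = 0.0443), and leaving out 4KAH27 and 4KAH35, the other AKO rat with high myeloid markers, gave 0.65 (p = 0.0934). The 4 KAH-named rats differed from WT by 1.84 (p = 0.00998) and the 6 AKO-named rats by 0.64 (p = 0.147). The HIP vs. WT difference was 0.70 (95% interval -0.20 to 1.59, p = 0.12). Of 34 alternative fits of this difference, 31 did not pass p = 0.05 either, and 3 did. These 3 were estimated reads as a covariate (1.28, p = 0.0214), leaving out WT rat 10RT47 (0.88, p = 0.0457) and leaving out HIP rat 10RT41 (0.95, p = 0.0207).

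Il1a, the agonist IL-1α that is active without cleavage, was also low. The lowest, median and highest counts were 3.12, 5.71 and 16.7 in WT, 2.15, 7.35 and 16.8 in HIP and 1.37, 9.53 and 14.8 in AKO rats. The groups overlapped over almost their whole range, and the sums were 74, 71 and 91 reads. No comparison passed p = 0.05, and the 95% intervals were -0.50 to 0.76 for HIP vs. WT and -0.42 to 0.96 for AKO vs. WT. The lowest value of all 30 rats was that of 4KAH27, about 1 read, although this rat had the highest Il1b.

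Il1rn encodes the receptor antagonist IL-1Ra, which occupies IL1R1 without signaling. Its counts spread widely within each group. They were 2.96, 33.8 and 66.8 (lowest, median, highest) in WT, 2.09, 21.6 and 99.5 in HIP and 2.47, 11.8 and 54.9 in AKO rats. Each group contained a rat with only 2 to 3 reads, and WT and HIP contained rats with 40 reads or more. In AKO only 4KAH27 had 40 reads, and the next rat, 7AKO30, had 25. The AKO vs. WT difference was -0.67 on the log2 scale (95% interval -1.86 to 0.52, p = 0.254), and that of HIP vs. WT was 0.22 (-1.22 to 1.65, p = 0.756). Intervals of this width do not show that the groups were alike.

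Il18, the second inflammasome substrate, was lower in HIP rats than in both other groups at the unadjusted threshold. Its lowest, median and highest counts were 15.3, 19.6 and 31.1 in WT, 6.61, 11.1 and 32.5 in HIP and 13.9, 25.0 and 42.9 in AKO rats. The groups overlapped, with 6 HIP rats (10RT37, 10RT41, 10RT42, 10RT52, 10RT53 and 10RT54) below every WT and AKO rat and HIP rat 10RT48 above every WT rat. The mean ± SD was 14.6 ± 7.96 in HIP, 21.1 ± 5.34 in WT and 25.7 ± 8.84 in AKO rats (n = 10 per group). The log2 difference was -0.61 for HIP vs. WT (SE 0.23, unadjusted p = 0.0165, adjusted p = 0.999) and -0.85 for HIP vs. AKO (SE 0.26, unadjusted p = 0.00335, adjusted p = 0.198). For AKO vs. WT it was 0.23 (95% interval -0.17 to 0.64).
Estimated reads were also lower in HIP rats (15.4 ± 1.02 M) than in WT rats (18.5 ± 2.61 M). With estimated reads as a covariate the HIP vs. WT difference was -0.36 (p = 0.228), and without the 10 rats with high olfactory bulb markers described further down it was -0.52 (p = 0.0908). Without 10RT48 it was -0.75 (p = 0.00173). Without the same 10 rats the HIP vs. AKO difference was -0.66 (p = 0.0689).

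Il1r1, the signaling receptor, was measured with 31 to 182 reads per rat. Counts were 47.7, 96.4 and 129 (lowest, median, highest) in WT, 52.9, 100.04 and 135.7 in HIP and 37.7, 109 and 182 in AKO rats. The AKO group held both the lowest and the highest rat. The 3 highest AKO rats were 4KAH35 (182), 6KAH99 (177) and 4KAH27 (157.7), and the lowest was 6KAH98 (37.7), all 4 from the KAH series. No group difference passed p = 0.05, with AKO vs. WT at 0.20 (95% interval -0.32 to 0.72) and HIP vs. WT at 0.09 (-0.30 to 0.48).

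Nlrp3, the sensor of the inflammasome, had similar medians in the 3 groups. Counts ran from 19.1 to 59.8 in WT (median 34.5), from 25.2 to 103 in HIP (median 32.2) and from 21.9 to 74.2 in AKO rats (median 41.2). One HIP rat, 10RT48, stood far above the other 9, whose highest value was 36.8. The HIP vs. WT difference was -0.03 (95% interval -0.50 to 0.43), or -0.34 (p = 0.0306) without 10RT43, 10RT46, 10RT48 and 7AKO19 (12RT23 was kept), and that of AKO vs. WT 0.13 (-0.31 to 0.57). For HIP vs. AKO it was -0.17 (-0.66 to 0.33), with 1 of 10 HIP rats above the AKO median.

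Pycard, the adaptor that joins sensor and caspase, ranged from 9.36 to 20.3 in WT (median 14.5), 9.29 to 28.3 in HIP (median 17.8) and 4.90 to 26.2 in AKO rats (median 22.5). The groups overlapped, and the differences were 0.11 for HIP vs. WT (95% interval -0.32 to 0.53) and 0.29 for AKO vs. WT (-0.22 to 0.80). For HIP vs. AKO the difference was -0.18 (-0.73 to 0.37), with 1 of 10 HIP rats above the AKO median.
Casp1, the protease, ranged from 17.4 to 35.9 in WT (median 24.7), 18.8 to 49.2 in HIP (median 28.6) and 22.9 to 41.1 in AKO rats (median 28.9). In each of HIP and AKO, 8 of 10 rats were above the WT median, yet neither difference passed p = 0.05: 0.25 for HIP vs. WT (SE 0.16, p = 0.129) and 0.28 for AKO vs. WT (SE 0.15, p = 0.081). Without WT rat 10RT43, the rat with cerebellum markers and the highest WT value, the AKO vs. WT difference was 0.34 (p = 0.0358).

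Nfkbia, the NF-κB inhibitor, was the best-measured member, with at least 315 reads in every rat. Its lowest, median and highest counts were 308, 430 and 636 in WT, 324, 489 and 593 in HIP and 352, 495 and 2422 in AKO rats. Apart from 4KAH27 at 2422, the 30 rats lay between 308 and 663 and the groups overlapped throughout. The AKO vs. WT difference was 0.38 (SE 0.26, p = 0.155), and 0.14 (95% interval -0.16 to 0.45) without 4KAH27.

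Nfkbid encodes IκBNS, a nuclear member of the inhibitor family. Its lowest, median and highest counts were 17.4, 28.5 and 70.6 in WT, 11.1, 20.3 and 30.8 in HIP and 15.7, 22.9 and 40.9 in AKO rats. The groups overlapped, but 9 of 10 HIP rats were below the WT median. The mean ± SD was 32.7 ± 15.5 in WT and 20.5 ± 5.51 in HIP rats, and the HIP vs. WT difference was -0.58 (SE 0.22, unadjusted p = 0.0139, adjusted p = 0.999). The highest WT value came from 10RT43, and without this rat the difference was -0.45 (p = 0.0258). Differences between AKO and the other groups did not pass p = 0.05.

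**Figure D1:**
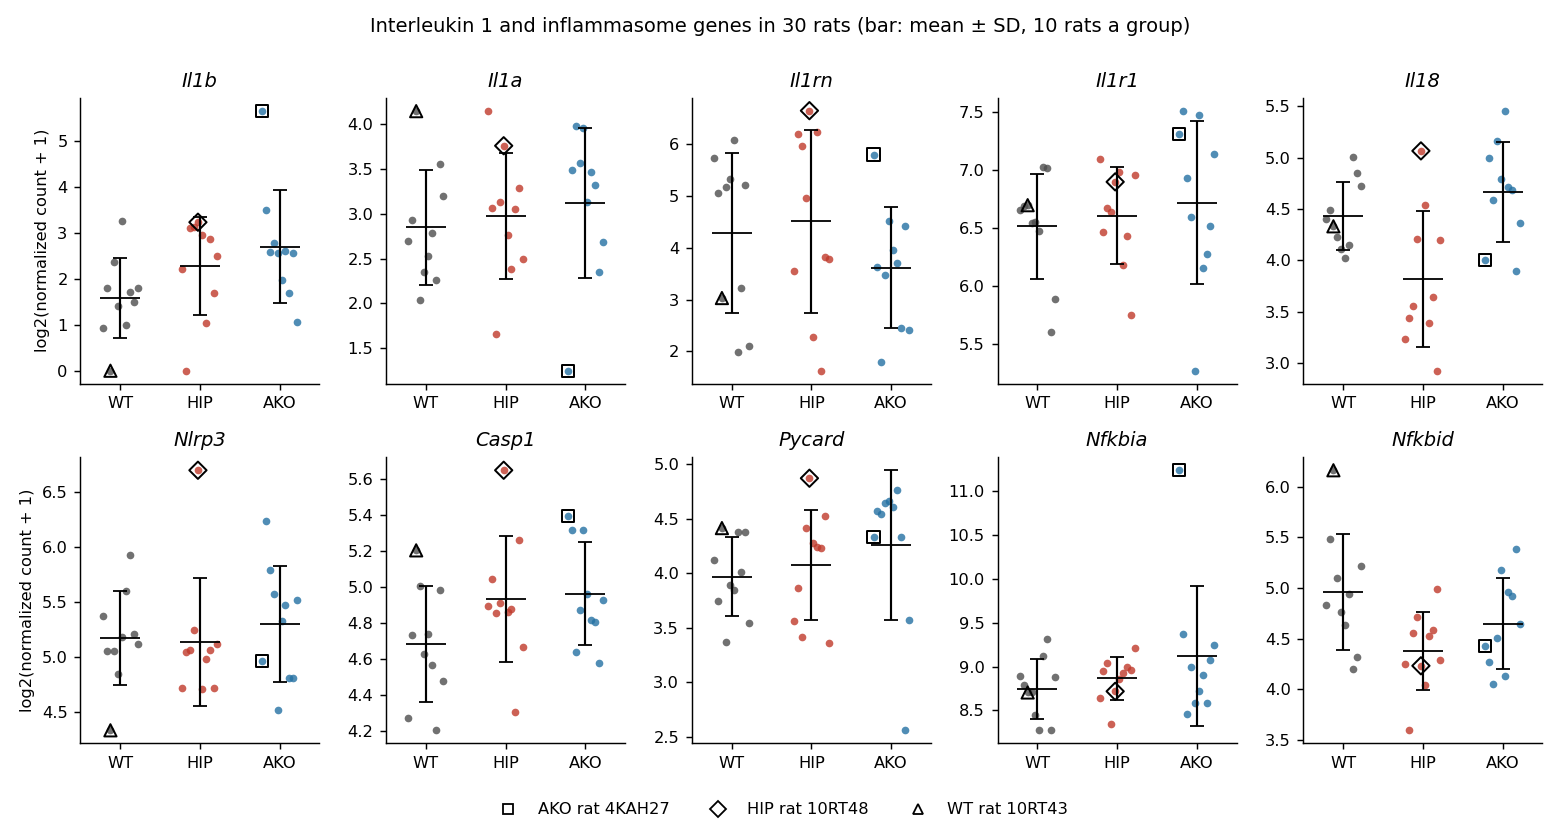
Normalized counts of the 10 genes in each rat, as log2(normalized count + 1) on the y axis, with WT, HIP and AKO on the x axis, 1 point per rat, and the bar and whiskers giving the mean ± SD of 10 rats. The square marks 4KAH27, alone at the top for Il1b and Nfkbia, the diamond 10RT48, highest for Il1rn, Nlrp3, Casp1 and Pycard, and the triangle 10RT43, highest for Nfkbid.

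In HIP vs. WT rats, 2 of the 10 members, Il18 and Nfkbid, had an unadjusted p under 0.05, both lower in HIP rats, beside 2.57% of all 17085 genes tested. In AKO vs. WT rats it was 1 of 10, Il1b, higher in AKO rats, beside 9.34% of 17058 genes. In HIP vs. AKO rats it was 1 of 10, Il18, lower in HIP rats, beside 12.7% of 17092 genes. None of the 10 had an adjusted p under 0.05 in the limma fits, a threshold passed by 0% of genes in HIP vs. WT, 0.0997% in AKO vs. WT and 0.17% in HIP vs. AKO. In HIP vs. WT the smallest adjusted p of all genes was 0.999. With voom on estimated reads no member passed the adjusted threshold either, and with sample-quality weights Il18 passed it in HIP vs. AKO. The comparisons share groups of rats in pairs. Over the 10 members the median log2 difference was 0.12 (HIP vs. WT), 0.25 (AKO vs. WT) and -0.17 (HIP vs. AKO), with a median over all genes of 0.00 in each.

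**Figure D2:**
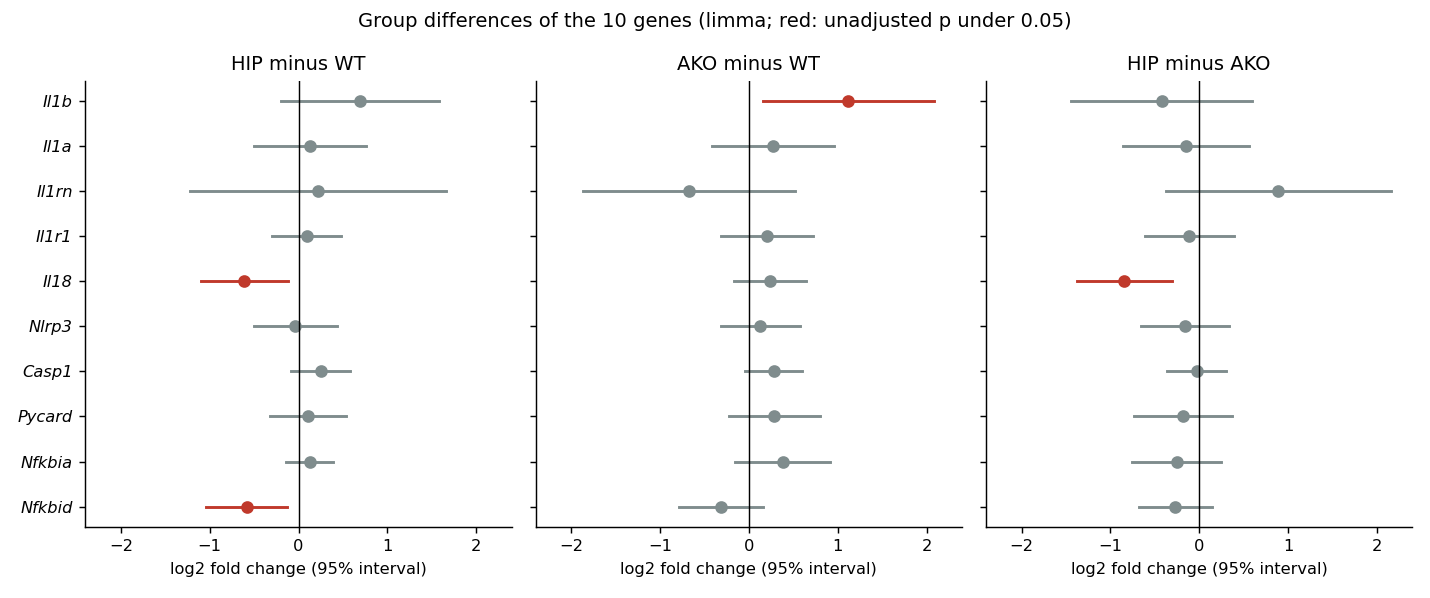
Log2 fold changes of the 10 genes on the x axis (point, with 95% interval as a line; limma, 10 rats per group) for HIP minus WT, AKO minus WT and HIP minus AKO. Red marks an unadjusted p under 0.05, reached by Il18 and Nfkbid, by Il1b and by Il18 in turn, and the intervals of Il1rn are the widest.

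The pathway around these genes was followed in 53 further genes from 7 lists: ligands, receptors, signal adaptors, inflammasome sensors, inflammasome effectors, NF-κB subunits and inhibitors, and genes that IL-1 is known to induce. In HIP vs. WT rats 51 of them were tested and 1 passed p = 0.05, beside 2.57% of all genes tested. With estimated reads as a covariate the count was 13, of which 1 passed the adjusted threshold, and it was 0 when WT rat 10RT44, HIP rat 10RT46 or HIP rat 12RT23 was left out. The 1 gene was Txnip, thioredoxin-interacting protein, an NLRP3 partner, at 0.39 (SE 0.16, p = 0.0276, adjusted p = 0.999) and with 1146 ± 377 in HIP and 860 ± 221 in WT rats.

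In AKO vs. WT rats 10 of the 53 passed p = 0.05, beside 9.34% of all genes tested. All were higher in AKO rats, and none had an adjusted p under 0.05. From the 10 inflammasome effectors, whose count of higher genes was 3, these were Gsdmd, the pore former gasdermin D (0.34, p = 0.0131), Panx1, a channel that releases ATP (0.57, p = 0.0127), and Txnip (0.32, p = 0.0352). From 5 sensors it was Nlrc4, which senses bacterial proteins (1.03, p = 0.00856). Its counts were 1.196 to 18.9 in WT and 5.72 to 26.97 in AKO rats. From 15 NF-κB genes these were Relb, a subunit (0.45, p = 0.0108), and Bcl3, a nuclear IκB protein (0.76, p = 0.0414). From 12 IL-1 response genes these were the adhesion molecules Icam1 (0.52, p = 0.00724) and Vcam1 (0.28, p = 0.0102), the transcription factor Cebpd (0.73, p = 0.0437) and Lcn2. Among 5 ligands 1 passed, the member Il1b, and among 7 receptors and 9 adaptors none. Without 4KAH27, Bcl3 (p = 0.0564), Cebpd (p = 0.0638) and Txnip (p = 0.0682) no longer passed. WT rat 10RT43, with high cerebellum markers, was lowest of all rats for Nlrc4 (1.196), Panx1 (128), Icam1 (66.97) and Vcam1 (440). It was the lowest WT rat for Relb (37.1), and not the lowest WT rat for the other genes named here. With each rat left out in turn, 7 to 12 of the 53 passed p = 0.05. Values of single genes without 10RT43 are not given here.

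Lcn2, lipocalin 2, an acute-phase protein of glia and neutrophils, differed most. Its lowest, median and highest counts were 0, 6.10 and 15.2 in WT, 1.04, 5.10 and 8.13 in HIP and 13.6, 23.4 and 281 in AKO rats. Every AKO rat was above every HIP rat, while AKO and WT rats overlapped. AKO exceeded WT rats by 2.66 (SE 0.58, p = 0.000159, adjusted p = 0.079), and the HIP vs. AKO difference was -2.56 (SE 0.43, p = 4.6e-06, adjusted p = 0.00874). Without 4KAH27 these were 2.30 (adjusted p = 0.0581) and -2.20 (adjusted p = 0.00117). It was the only one of the 63 pathway genes with an adjusted p under 0.05 in these 3 limma fits. Its HIP vs. AKO difference did not pass the adjusted threshold with voom on estimated reads (adjusted p = 0.054), without the rats with olfactory bulb genes (0.114) or with KAH-named AKO rats only (0.144).

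In HIP vs. AKO rats 8 of the 53 passed p = 0.05, all lower in HIP rats, beside 12.7% of all genes tested. Besides Lcn2 these were Il18bp, the soluble inhibitor of IL-18 (-0.79, p = 0.00561), Myd88, the adaptor of the IL-1 receptor (-0.35, p = 0.0243), Nlrc4 (-0.66, p = 0.045), Panx1 (-0.39, p = 0.0346), Bcl3 (-0.95, p = 0.0112), Relb (-0.55, p = 0.0059) and Cebpd (-0.75, p = 0.0315). Il18bp had counts of 19.1 ± 8.63 in HIP and 32.7 ± 13.8 in AKO rats. Levels of myeloid markers overlapped between the groups. The mean over 8 of 10 monocyte and neutrophil markers was 1.51 to 2.45 in WT, 1.65 to 4.05 in HIP and 2.41 to 5.23 in AKO rats on the log2 scale. Of these markers Camp was at 0 in 8 rats, Cxcr2 in 7 and Fcnb in 3. The brain macrophage list had group means of 5.70 in WT, 5.41 in HIP and 5.87 in AKO rats, so WT and HIP were in another order. The part of both lists in these differences was not tested.

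A single AKO rat, 4KAH27, stood apart from the other 29 for many of these genes. Its Il1b count was 49.4 and that of the other 29 rats at most 10.3. Its Nfkbia count was 2422, 5.05 times the median of the other 9 AKO rats. Il1r2, the decoy receptor, was at 71.3 in this rat and at most 2.47 in the others. Of the 12 IL-1 response genes, 10 were highest of all 30 rats in 4KAH27, as were 24 of the 53 further pathway genes, beside 11.04% of all genes. Among the response genes, the chemokine Ccl2 reached 248 (others at most 12.6), inducible nitric oxide synthase Nos2 153.6 (at most 9.90), the cytokines Il6 27.4 (at most 4.57) and Tnf 26.1 (at most 8.27), and Cebpb 590 (at most 103). The exceptions were Sele and Ptgs2. The nuclear IκB genes Nfkbiz (229, others at most 87.2) and Bcl3 (141.3, at most 34.2) and the adaptors Irak2 (527) and Myd88 (302, at most 190) were highest as well.

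Of the inflammasome members, Nlrp3, Pycard and Il18 did not follow in this rat. Nlrp3 was at 30.2, Pycard at 19.2 and Il18 at 15.1, within the range of the other AKO rats. Casp1 at 41.1 was above the highest value of the other AKO rats (38.9) and, of the 30 rats, lower only than 10RT48 (49.2). The monocyte and neutrophil list was highest of all rats in 4KAH27 (5.23), with Cd14 at 320, S100a9 at 197 and S100a8 at 130. Of its 8 markers, 4 were highest of the 30 rats (these 3 and Cxcr2), and Ccr2 (2.74) and Camp (1.37) were below the median of the other AKO rats. The mean of the microglia list was 8.35, the lowest among AKO rats, and 5 of its 15 markers were lowest of the 30 rats: Cx3cr1 (340), P2ry12 (107), Tmem119 (96.0), Trem2 (96.0) and Aif1 (89.1). The list was not low throughout, since C1qb (1786) and C1qc (1104) were second highest of the 30 and Ctss (5078) was above the median of the other AKO rats. Other lists also stood out in this rat. Its astrocyte (11.7) and meninges (6.96) lists were the lowest of the 30 rats. Its oligodendrocyte list (12.2) was the second lowest and its striatum list (10.7) the second highest. The neocortex list (10.9) was within the range of the other rats. Estimated reads (12.9 M) were the lowest of the 30 rats. The part of these markers and of depth in the values of this rat was not tested. This rat shared high myeloid markers with 4KAH35 (4.90), in which Il1b was 10.3, Nfkbia 663 and Lcn2 within the range of the other AKO rats.

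**Figure D3:**
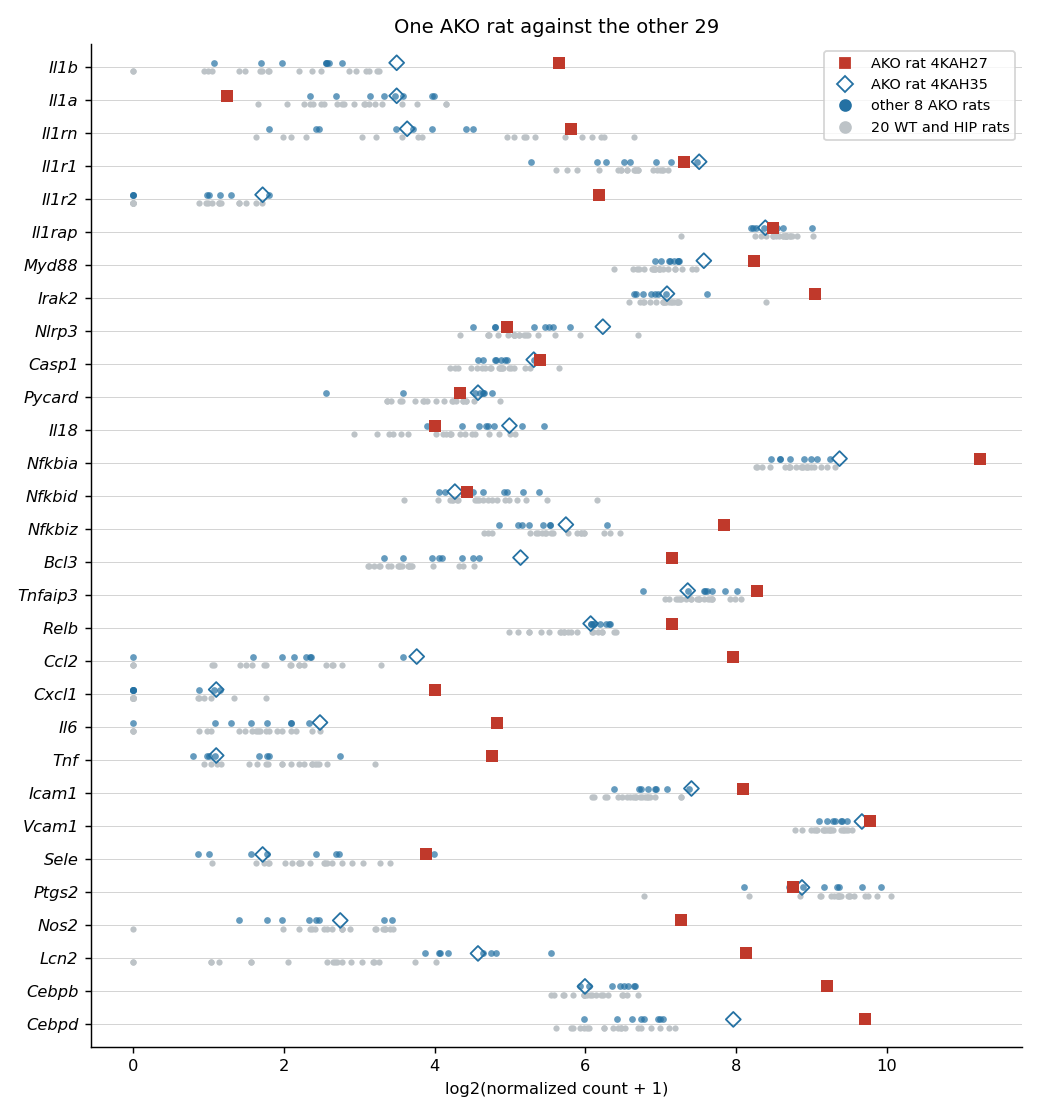
Levels of the 10 members, further pathway genes and the 12 IL-1 response genes in 30 rats, as log2(normalized count + 1) on the x axis, 1 row per gene. The red squares (4KAH27) lie to the right of all other rats for Il1b, Il1r2, Nfkbia, Bcl3, Ccl2, Nos2, Lcn2 and Cebpb, and among the other rats for Nlrp3, Pycard and Il18.

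HIP rat 10RT48 was extreme for other genes. It was highest of the 30 rats for 4 of the 10 members: Il1rn (99.5), Nlrp3 (103), Casp1 (49.2) and Pycard (28.3). It was also highest for 4 of 5 inflammasome sensors, beside 2.83% of all genes, and for 0 of 12 IL-1 response genes. Its microglia list mean was 9.73, compared with 7.85 to 9.12 in the other 29 rats, and 10 of 15 microglia markers were highest in this rat, among them C1qa (4343, others at most 1810) and Cd68 (260, at most 85.4). Of the monocyte and neutrophil list, whose mean of 4.05 was the highest among HIP rats, Plac8 (336, others at most 57.6) and Fcnb (89.0, at most 31.5) were highest in this rat. The other markers of this list were not highest of the 30 rats. S100a8, S100a9, Ccr2 and Cd14 were above the median of the other HIP rats, and Cxcr2 (1.05) and Camp (1.05) were below it. The part of these microglia, monocyte and neutrophil markers in the values of 10RT48 was not tested. Nfkbia was at 420 in 10RT48, below the HIP median.

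The microglia list (15 of 16 genes in the table, none at 0 in any rat) was 8.52 ± 0.26 in WT (range 7.85 to 8.80), 8.57 ± 0.44 in HIP (8.16 to 9.73) and 8.87 ± 0.30 in AKO rats (8.35 to 9.12). Over 30 rats and with 10 relations tested, the level of 3 members rose with this list after adjustment. These were Nlrp3 (Pearson r = 0.70, permutation p = 5e-05, adjusted p = 0.0005, Spearman rho = 0.53, p = 0.00296, adjusted p = 0.00987), Il18 (r = 0.58, permutation p = 0.00083, adjusted p = 0.00415, rho = 0.71, p = 1e-05, the smallest the permutations can give, adjusted p = 1e-04) and Pycard (r = 0.44, permutation p = 0.0138, adjusted p = 0.046, rho = 0.54, p = 0.00218, adjusted p = 0.00987). Without 10RT43 and 10RT48, the rats farthest from the median of the list, r was 0.47 for Nlrp3, 0.65 for Il18 and 0.49 for Pycard. By Spearman correlation Nlrp3 (rho = 0.42, permutation, adjusted p = 0.0521) then no longer passed, while Il18 (rho = 0.72) and Pycard (rho = 0.56) did. Il1a (r = 0.56) and Il1rn (r = -0.54) passed only then. Within groups of 10 rats, no relation passed adjustment. For Il18, r was 0.30 in WT, 0.70 in HIP and 0.53 in AKO rats, and for Nlrp3 it was 0.79, 0.85 and 0.48. For Pycard it was -0.37 in WT, 0.66 in HIP and 0.51 in AKO rats.
With the microglia list as a covariate, the Il18 difference was -0.66 for HIP vs. WT (p = 0.00348) and -0.54 for HIP vs. AKO (p = 0.0291), and that of AKO vs. WT was -0.002 (p = 0.993).

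**Figure D4:**
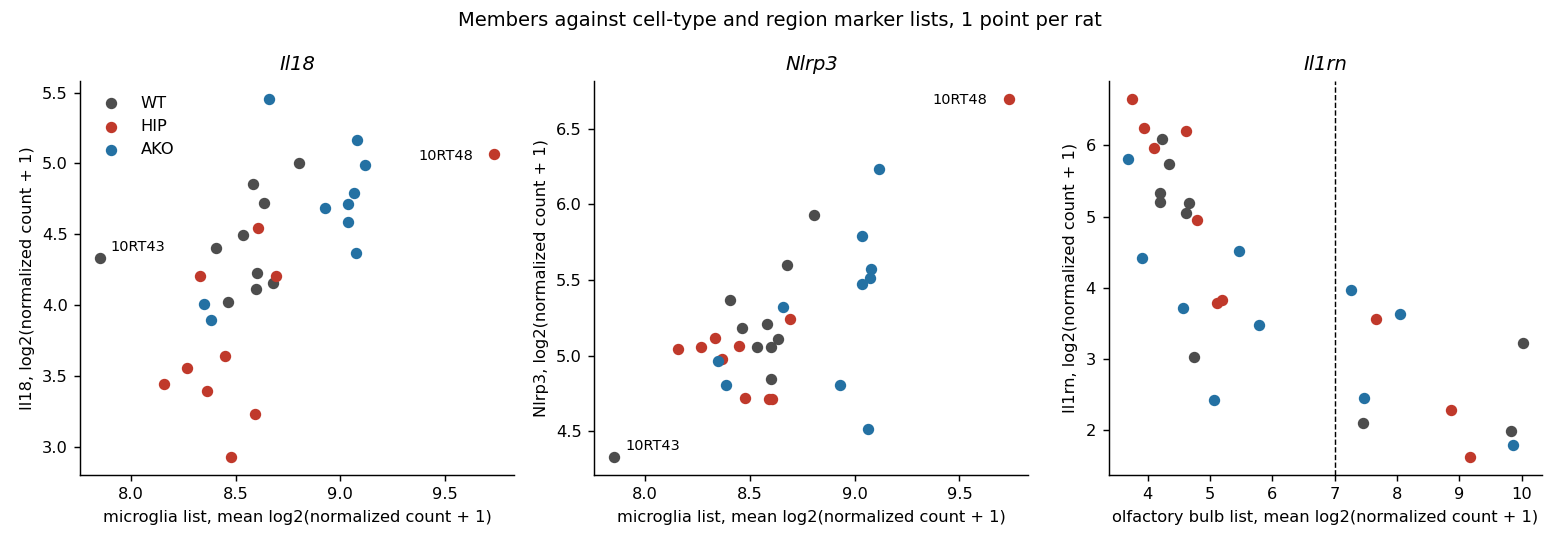
Levels of Il18 and Nlrp3 against the microglia list mean and of Il1rn against the olfactory bulb list mean, all as log2(normalized count + 1), 1 point per rat colored by group. Nlrp3 and Il18 are higher where the microglia list is higher, with 10RT48 at the far right, and Il1rn is low in each of the 10 rats right of the dashed line at 7.

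Il1rn was low in the rats with high levels of olfactory bulb markers. The mean over 4 olfactory bulb markers (Eomes, Cdhr1, Tbx21 and Doc2g) was above 7 in 10 rats (3 WT, 3 HIP and 4 AKO) and at most 5.79 in the other 20. In the 10 rats, Il1rn was 2.09 to 14.6 with a median of 4.19. In the other 20 it was 4.36 to 99.5 with a median of 33.8. This split was made after the values were seen and was not tested. The genes whose level varied most like that of Il1rn within groups, over 30 rats and 13712 genes, were Cacna2d3 (Spearman rho = 0.89), Foxe1 (0.87) and Lgi3 (0.84). With all rats the HIP vs. AKO difference of Il1rn was 0.89 (p = 0.159, limma). Without these 10 rats it was 1.32, with 7 HIP and 6 AKO rats. No p is given for the latter, because the rats left out are those in which Il1rn was seen to be low.

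The same measure of likeness, as a description, gave Nckap1l (0.81), Pld1 (0.77) and Lcp2 (0.76) for Nlrp3. For Il18 it gave Ptpn18 (0.77), Icoslg (0.73) and Klra2 (0.73), for Casp1 Snx20 (0.78), Dnase1l1 (0.75) and Ovol1 (0.75), and for Pycard Smim11a (0.69), Hinfp (0.66) and Hmgb1 (0.64). Il1r1 varied most like Pdlim5 (0.92), Sned1 (0.90) and Bicc1 (0.87). For Nfkbia the 3 genes were Maff (0.74), Fosl2 (0.72) and Plat (0.71), of which Maff and Fosl2 are stress-induced transcription factors, and for Nfkbid they were Gucd1 (0.76), Serhl2 (0.76) and Abtb1 (0.75). Il1b and Il1a, with means under 10, were left out of this search.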

How the data were processed

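The authors sequenced brain RNA (Illumina), used Partek Flow (10.0.22.0228) with rn7 and Ensembl105 genes, and applied DESeq2 normalization; the submitters' processing notes also name STAR 2.7.8a and Bowtie2. The deposited signal is the resulting normalized count per gene and rat, not a whole number. The step of 1 read in each rat was estimated from values below 100, of which 80.1% to 85.7% were whole multiples (within 0.05 read). Whole reads were therefore not taken as recovered, but all 255 member values below 100 were whole multiples. A count of 0 allows up to 3 reads. Read numbers cover counting error only.

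Groups came from the sample annotation. Each comparison used limma 3.58.1 in R 4.3.3 (lmFit, eBayes with trend, two-sided) on log2(normalized count + 1), with genes of mean at least 1 in the 20 rats compared and no covariates. Fold changes are on this scale and understate those of low genes. Benjamini-Hochberg adjustment ran over all genes tested. The thresholds were 0.05 unadjusted, as in the study, and 0.05 adjusted. The fit was tested on simulated data. Permutation tests (two-sided, 100000 resamples) and correlations used Python 3.11.15, numpy 2.4.6, scipy 1.17.1 and pandas 2.3.3. Whether the rats shared litters or extraction days is not given in the sources used here.

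All members are named. Of the 53 further pathway genes, those with an unadjusted p under 0.05 are named, together with the extremes of 4KAH27, 10RT48 and 10RT43, which were picked after their values were seen. For each member with a mean of at least 10, the 3 most alike genes by Spearman correlation of group-centred values are given. The members and lists were chosen with earlier results of these data known. Alternatives were other pseudocounts (0.1 and 5), the filter left out or set at a mean of 10, one fit of all 30 rats, sample-quality weights, quantile normalization, voom on estimated reads, the microglia list, estimated reads or the library number as covariates, leaving out 10RT43, 10RT46, 10RT48 and 7AKO19, name series, and each rat left out in turn. Leaving out 4KAH27 and 4KAH35, leaving out the rats with olfactory bulb genes, and the olfactory bulb list as a covariate were added after the data were seen. Irak1, Ikbkg, Cxcl2 and some other listed genes had no matching symbol and were not analysed here.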

Additional observations from a re-analysis of the deposited data

Results flagged for a closer look

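A rat was singled out where its gap to the nearest rat of its group was too large a share of the group's range by Dixon's test at the 95% level for groups of 10. Of 87 groups examined, 19 held such a rat. The groups were those of the members, of the further pathway genes with an unadjusted p under 0.05 in a comparison, and of the list means. Genes were examined as normalized counts without logarithm, whose spread is skewed, and many were chosen by their differences in these data. The number of flags was therefore not compared with chance. AKO rat 4KAH27 was the rat in 13 of them: Il1b (49.4), Il1rn (54.9), Nfkbia (2422), Il18bp (65.8), Myd88 (302), Bcl3 (141.3), Relb (141.3), Icam1 (272), Lcn2 (281) and Cebpd (839) as normalized counts, and the means of the receptor list (6.23), the NF-κB list (8.13) and the IL-1 response list (7.20) on the log2 scale. Bcl3 and Relb had the same number of reads, 103, in this rat. HIP rat 10RT48 was the rat in 4 of them: Nlrp3 (103), Nlrc4 (30.4), Bcl3 (21.99) and the mean of the sensor list (5.35). WT rat 10RT47 stood apart for Il1b (8.59, 9 reads), and WT rat 10RT43 for Nfkbid (70.6). Several of these genes share a rat, so that the flags are not independent of each other.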

How the results depend on the processing

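The Nfkbid difference of HIP vs. WT passed p = 0.05 under all 35 alternatives run for it, and those of Il18 lost it under 2 of 35 (HIP vs. WT) and 1 of 38 (HIP vs. AKO, -0.66, p = 0.0689, without the rats with olfactory bulb genes), each with its direction kept. The Il1b difference of AKO vs. WT lost it under 5 of 37, and with a mean of at least 10 Il1b was not tested. Of 1104 recomputed log2 fold changes of members, 48 had another sign than the reported one, each of a difference that did not pass p = 0.05. These alternatives show how the values depend on the processing and on the rats used, and no cause was tested.

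Members called in AKO vs. WT numbered 3 with sample-quality weights, the microglia list as covariate or KAH-named rats only, 0 with a mean of at least 10, with AKO-named rats only or without 4KAH27 and 4KAH35, and 1 to 2 with each rat left out in turn. In HIP vs. AKO 2 members were called with sample-quality weights, 1 of them at the adjusted threshold, and 1 to 2 with each rat left out. Of the further pathway genes in HIP vs. WT, 13 were called with estimated reads as covariate (1 at the adjusted threshold), 2 with sample-quality weights or without the rats with olfactory bulb genes, and 0 to 2 with each rat left out. In AKO vs. WT 6 were called with AKO-named rats only, and at the adjusted threshold 1 with all 30 rats in one fit or the library number as covariate and 3 with sample-quality weights. In HIP vs. AKO the 1 gene at the adjusted threshold became 0 with voom, without the rats with olfactory bulb genes and with KAH-named rats only, and 5 to 10 were called unadjusted with each rat left out.

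Changed signs of HIP vs. WT were, with estimated reads as covariate, Il1a (-0.27), Il1r1 (-0.031) and Nlrp3 (0.23); without the rats with olfactory bulb genes, Il1a (-0.066) and Nlrp3 (0.26); and Il1rn with sample-quality weights (-0.32), the library number (-0.42) and without 10RT43, 10RT46, 10RT48 and 7AKO19 (-0.25). With each rat left out, values ran from -0.0044 to 0.27 for Il1a, -0.039 to 0.54 for Il1rn, -0.0080 to 0.19 for Il1r1 and -0.21 to 0.0499 for Nlrp3. For AKO vs. WT they were Il1a without the rats with olfactory bulb genes (-0.012), Il1rn with KAH-named rats (0.19), and Il18 (-0.0020) and Nlrp3 (-0.24) with the microglia list. For HIP vs. AKO they were, without 4KAH27 and 4KAH35, Il1b (0.046), Il1r1 (0.063), Casp1 (0.069) and Nfkbia (0.043); with AKO-named rats, Il1b (0.059), Il1r1 (0.0058), Casp1 (0.16) and Pycard (0.0082); with the microglia list, Il1a (0.25), Nlrp3 (0.15), Casp1 (0.081) and Pycard (0.088); without the rats with olfactory bulb genes, Il1r1 (0.011), Nlrp3 (0.13), Casp1 (0.054) and Pycard (0.0099); with KAH-named rats, Il1a (0.017); and Casp1 with sample-quality weights (0.051), quantile normalization (0.0082) and voom (0.0196). With each rat left out, Il1a ran from -0.35 to 0.0014 and Casp1 from -0.11 to 0.0404.

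Correlations with the microglia list changed sign within WT for Il1a (r = -0.69), Il1r1 (-0.031), Casp1 (-0.59), Pycard (-0.37) and Nfkbia (0.28), within HIP for Il1rn (0.22) and Nfkbid (0.019), within AKO for Il1b (-0.48) and Il1r1 (-0.26), and without 10RT43 and 10RT48 for Nfkbid (0.0897). No paired analysis was possible because the labels give the rats no shared replicate numbers. Depth limits the low members, with at most 36 reads of Il1b, 18 of Il1a and 33 of Pycard in any rat.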

Other observations

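WT rat 10RT43, with neocortex markers nearly absent and cerebellum markers high, also held the extreme values of several pathway genes, chosen here after their values were seen. Il33, an alarmin of the IL-1 family, was at 1958 in this rat, followed by 788 in HIP rat 12RT23, whose cerebellum list was the second highest (9.39), with a median over 30 rats of 385. Casp4, the caspase of the non-canonical inflammasome, was at 224 in 10RT43 and at most 71.2 elsewhere (median 42.03). Nlrc4 (1.196) and Nlrp3 (19.1) were lowest of the 30 rats in 10RT43. The lowest Il33 (160) and the lowest P2rx7, the ATP receptor upstream of NLRP3 (53.5, median 165), were those of 4KAH27.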
